A study of Homo sapiens with 4 samples.

Results

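The genes described here are 9 interferon, chemokine and cytokine genes, IFNB1, IFNL1, CXCL10, CXCL11, CCL2, IL6, TNF, CXCL1 and CXCL2, out of 57820 gene IDs counted in each library. They were taken by symbol, and their raw read counts on the strand of the transcript were kept without any filter on low values, so all 9 are accounted for and each had at least 10 reads in at least 1 library. The libraries come from HEK293T cells, a human embryonic kidney line, transfected with a plasmid that expresses the splicing factor SF3B1. The plasmid carried the substitution R625H (1000 ng of plasmid), K666T (1000 ng) or K700E (2000 ng), or the wild-type protein (WT, amount not given in the sources used here). There was 1 library per vector, so no difference below has a replicate check or a test, and the intervals cover counting error only. In every comparison with K700E the substitution and the plasmid amount cannot be told apart. Because the WT amount is not known, the same may apply to R625H and K666T against WT.

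Interferon beta and the lambda interferons are secreted proteins that a cell makes after its sensors have detected foreign or misplaced nucleic acid. The transcription factors IRF3, IRF7 and NF-kB switch on their genes, and the secreted interferon then acts through surface receptors to induce antiviral genes, among them the chemokine genes CXCL10 and CXCL11. IL6, TNF, CCL2, CXCL1 and CXCL2 are known above all as inflammatory targets of NF-kB, and their products attract leukocytes or act on many cell types.

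Reads assigned to genes numbered between 82254731 and 90939945 per library, so 1 read was worth between 0.0110 and 0.0122 CPM (reads scaled to the total of each library). Read pairs assigned to no gene made up 28.4 to 29.5% in the 3 mutant libraries and 21.9% in WT. The markers NEFM, INA, VIM and ENO2, which HEK293T cells are known to express, each had at least 3734 reads in every library. The 6 leukocyte markers summed to 4.19, 4.28 and 4.96 CPM in R625H, K666T and K700E and 3.50 CPM in WT. Of these, PTPRC, the pan-leukocyte phosphatase, had 3, 5 and 6 reads against 8 in WT, and the T cell gene CD3E had 3, 2 and 1 reads against 0. ITGAM, a myeloid integrin, had 85, 78 and 78 reads against 21 in WT. The 5 endothelial and fibroblast markers matched summed to 27.9, 30.3 and 31.6 CPM in R625H, K666T and K700E, against 31.7 CPM in WT, and the part of such markers in the results was not tested.

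The promoters of 5 of the genes are printed, and each carries the letters of a site for the factors named above. They were picked with their K700E levels known. IFNB1, CXCL10, CXCL11 and IFNL1 stood apart in K700E, and CXCL2 did not. IL6 and CXCL1, which are not printed, also carry the NF-kB letters. Whether the letters bear on the levels was not tested. Each line gives the bases before the transcription start, 5′ to 3′ on the gene's strand, from RefSeq on GRCh38.p14, whereas the read counts rest on hg19. Capitals mark matches to the motifs searched.
IFNB1 (chr9:21077943-21078092, minus strand): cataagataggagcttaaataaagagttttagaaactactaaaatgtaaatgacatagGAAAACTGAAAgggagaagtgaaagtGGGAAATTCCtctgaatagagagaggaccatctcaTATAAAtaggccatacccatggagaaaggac
CXCL10 (chr4:76023498-76023737, minus strand): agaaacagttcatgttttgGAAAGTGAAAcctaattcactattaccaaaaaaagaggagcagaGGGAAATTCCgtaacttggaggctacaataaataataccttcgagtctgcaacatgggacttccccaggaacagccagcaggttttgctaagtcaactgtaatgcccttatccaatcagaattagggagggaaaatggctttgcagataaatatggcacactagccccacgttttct
CXCL11 (chr4:76036071-76036220, minus strand): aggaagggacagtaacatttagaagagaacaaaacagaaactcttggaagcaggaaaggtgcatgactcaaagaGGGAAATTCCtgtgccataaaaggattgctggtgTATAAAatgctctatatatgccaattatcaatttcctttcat
IFNL1 (chr19:39296167-39296406, plus strand): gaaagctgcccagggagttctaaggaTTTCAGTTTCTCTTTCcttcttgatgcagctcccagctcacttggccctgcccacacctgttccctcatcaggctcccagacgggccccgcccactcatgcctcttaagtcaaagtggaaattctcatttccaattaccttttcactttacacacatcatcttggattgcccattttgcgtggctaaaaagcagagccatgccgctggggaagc
CXCL2 (chr4:74099196-74099345, minus strand): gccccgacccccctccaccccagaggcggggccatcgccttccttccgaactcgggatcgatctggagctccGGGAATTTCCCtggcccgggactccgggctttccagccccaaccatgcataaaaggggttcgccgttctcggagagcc

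Motifs were searched on both strands of the 250 bases before the start of 35116 promoters, which hold 8 of the 9 genes. The interferon-stimulated response element GAAANNGAAA stood in 3.02% of all promoters and in those of CXCL10 and IFNL1, where 2 matches on the opposite strand overlap. Its variant with 1 base more in the spacer, GAAANNNGAAA, stood in 2.5% of promoters and, of the 9 genes, in IFNB1. The NF-kB motif GGGNNNTTCC stood in 5.67% of all promoters and in 6 of the 8 (IFNB1, CXCL10, CXCL11, IL6, CXCL1 and CXCL2), with the same 10 letters, GGGAAATTCC, in IFNB1, CXCL10 and CXCL11. In CXCL1 and CXCL2 it matched on both strands, the matches overlapping. The TATA motif TATAAA stood in 10.7% of promoters and in IFNB1, CXCL11 and TNF. A match is a match of letters and not a measured site.

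IFNB1, an intronless gene on chromosome 9 that encodes interferon beta, had 67 reads in R625H, 57 in K666T and 362 in K700E, against 8 in WT. All 3 mutant libraries were above WT, and K700E was far above the other mutants. In RNA from a whole culture, more cells with the transcript and more RNA per cell cannot be told apart. Its CPM was 9.26-fold that of WT in R625H (95% interval 4.44 to 22.3), 7.50-fold in K666T (3.56 to 18.2) and 49.6-fold in K700E (24.9 to 116). Here and below these intervals are exact conditional ones on the reads of both libraries. The log2 ratios to WT with a prior count of 10 reads, used for every call of a 2-fold difference, were 2.19, 1.94 and 4.46. They are smaller because the prior draws low counts together.

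IFNL1 on chromosome 19, a lambda interferon of epithelial antiviral defence, had its highest count in K700E: it had 3 reads in R625H, 5 in K666T and 36 in K700E, against 4 in WT. K700E stood 9.86-fold above WT (3.53 to 38.1), while the intervals of R625H (0.121 to 4.90) and K666T (0.283 to 6.63) held 1. A difference of R625H or K666T from WT was therefore not detectable at this depth.

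CXCL10 on chromosome 4, a ligand of the receptor CXCR3 that attracts activated T cells, had the most reads of the 9 genes. Its counts were 209 in R625H, 180 in K666T and 1266 in K700E, against 30 in WT, in the same order of libraries as IFNB1. The ratios to WT were 7.70 (5.24 to 11.7), 6.32 (4.27 to 9.63) and 46.2 (32.2 to 68.8). CXCL11, its neighbour on the same chromosome and another CXCR3 ligand, had 45, 50 and 246 reads in R625H, K666T and K700E, against 10 in WT. It was 4.98-fold (2.47 to 11.1), 5.26-fold (2.64 to 11.6) and 26.9-fold (14.4 to 56.9) above WT. For both chemokines R625H and K666T did not differ beyond counting error, and K700E was above both.

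CCL2 on chromosome 17, which attracts monocytes, did not have its highest level in K700E. It had 53 reads in R625H, 30 in K666T and 45 in K700E, against 13 in WT, and each mutant interval lay above 1, with ratios of 4.51 (2.42 to 9.01), 2.43 (1.23 to 5.07) and 3.79 (2.01 to 7.66). With the prior count, R625H and K700E were past 2-fold (log2 1.56 and 1.35) and K666T was not (0.85). Reads that overlap a gene on the other strand count here only by strand: counted without strand, CCL2 had 47, 29 and 41 reads in R625H, K666T and K700E, and 9 in WT.

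TNF on chromosome 6, a cytokine that itself activates NF-kB, had 23, 28 and 34 reads in R625H, K666T and K700E, against 8 in WT. These were ratios of 3.18 (1.37 to 8.22), 3.68 (1.64 to 9.35) and 4.66 (2.12 to 11.6), and the mutant libraries did not differ from each other beyond counting error. IL6 on chromosome 7, a cytokine of the acute phase response, had 10, 6 and 20 reads against 2 in WT, the lowest counts of the 9 genes in WT. The ratios were 5.53 (1.18 to 51.9), 3.16 (0.565 to 32) and 11.0 (2.66 to 96.7), so that only wide ranges can be given. In the annotation, 12.6% of the 100-base windows of its transcripts also stand in AC073072.1, a gene at the same locus. Windows were matched on either strand, so whether this affects the counts by strand was not determined. Counted without strand, IL6 had 8, 3 and 15 reads in R625H, K666T and K700E, against 1 in WT.

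CXCL1 and CXCL2 on chromosome 4 encode neutrophil chemokines. CXCL1 had 25, 28 and 36 reads in R625H, K666T and K700E, against 25 in WT, and all 3 intervals held 1 (0.609 to 2.01, 0.663 to 2.11 and 0.921 to 2.74). CXCL2 had 145, 123 and 79 reads against 67 in WT, so R625H was the highest library and K700E the mutant nearest to WT. Its ratios were 2.39 (1.78 to 3.25), 1.93 (1.42 to 2.64) and 1.29 (0.921 to 1.82). In 5% of its 100-base windows CXCL2 has the same letters as CXCL3, and reads from these cannot be assigned to 1 of the 2 genes.

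**Figure D1:**
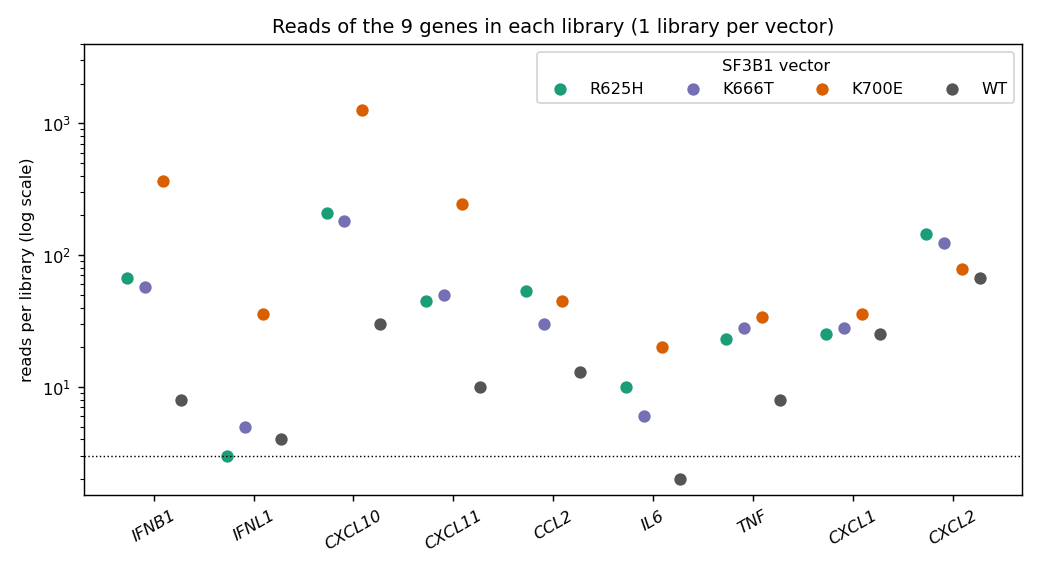
Reads of each of the 9 genes (x axis) on a log scale (y axis), 1 point per library, with the mutant libraries left of WT and a dotted line at 3 reads. IFNB1, IFNL1, CXCL10 and CXCL11 have K700E far above the other points (362, 36, 1266 and 246 reads), whereas CXCL2 has R625H at the top with 145 reads.

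By the 2-fold rule, 5 of the 9 genes (55.6%) were higher in R625H than in WT, namely IFNB1, CXCL10, CXCL11, CCL2 and CXCL2, against 0.541% of all 35676 genes with a read. In K666T 4 of the 9 (44.4%) were higher, IFNB1, CXCL10, CXCL11 and TNF, against 0.617% of all genes. In K700E 7 of the 9 (77.8%) were higher, against 1.1% of all genes, and CXCL1 and CXCL2 were the exceptions. Over only the genes with at least 10 reads in some library, as all 9 have, the shares higher were 0.904, 1.03 and 1.85% in R625H, K666T and K700E. None of the 9 was 2-fold lower in any mutant, where the share of all genes was 0.0645, 0.0448 and 0.387%. This says little, because IFNB1, IFNL1, CXCL11, IL6 and TNF had at most 10 reads in WT. With the prior count of 10 they could not be called lower at any mutant count. Median log2 ratios of the 9 genes were 1.14, 0.85 and 1.38 in R625H, K666T and K700E, against -0.01, 0.01 and 0.02 over the 21344 genes with at least 10 reads in some library. These 3 comparisons share the WT library. In K700E the count of 7 would be 3 if genes under 1 CPM in every library were left out, since only 4 of the 9 genes reach that level. Of the 3, IFNB1 and CXCL11 reach 1 CPM in K700E only, so the filter keeps them through the library compared. A prior count of 1 read gave 7 in R625H, with IL6 and TNF, and 6 in K666T, with CCL2 and IL6.

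**Figure D2:**
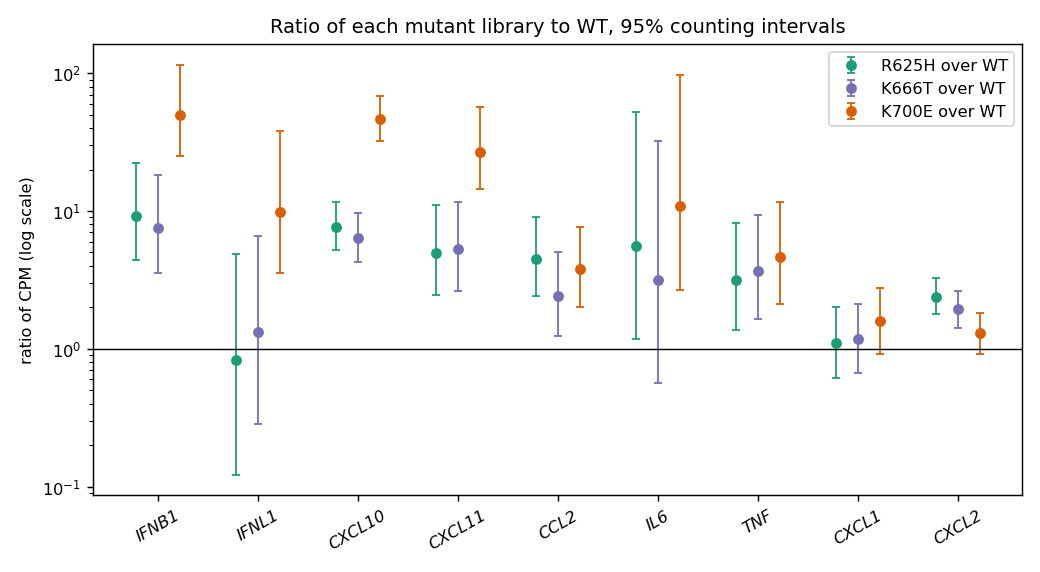
Ratio of CPM of each mutant library to WT (y axis, log scale) for the 9 genes (x axis), with bars for the 95% counting interval and a line at 1. K700E reaches 49.6-fold for IFNB1 and 46.2-fold for CXCL10, and the intervals of CXCL1 hold 1 in all 3 mutants.

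The mutant libraries were also set against each other. K700E was above R625H by 5.35-fold for IFNB1 (4.11 to 7.06), 11.9-fold for IFNL1 (3.76 to 60.3), 6-fold for CXCL10 (5.18 to 6.98) and 5.42-fold for CXCL11 (3.93 to 7.62). These 4 genes (44.4%) were past 2-fold, against 0.443% of all genes and 0.74% of those with at least 10 reads in some library. K700E was above K666T for the same 4, against 0.412% of all genes and 0.689% of those with at least 10 reads. The ratios were 6.61 (4.99 to 8.90), 7.49 (2.93 to 24.5), 7.32 (6.26 to 8.60) and 5.12 (3.76 to 7.09). The 5 inflammatory genes were less than 2-fold apart with the prior count in both comparisons, except that a prior count of 1 read put IL6 past 2-fold in K700E over K666T (log2 1.64 in place of 0.94). For CCL2 the ratio of K700E to R625H was 0.841 (0.553 to 1.28), for TNF 1.46 (0.838 to 2.60) and for CXCL1 1.43 (0.833 to 2.48), intervals that hold 1 and so leave room for differences in either direction. IL6 in K700E was 1.98-fold that of R625H (0.885 to 4.74) and 3.47-fold that of K666T (1.34 to 10.6). CXCL2 was lower in K700E than in both, at 0.540 of R625H (0.405 to 0.715) and 0.668 of K666T (0.497 to 0.894). This was short of 2-fold, and no gene of the 9 was 2-fold lower in K700E than in R625H or K666T, against 0.238 and 0.174% of all genes. IFNL1 in both comparisons and IL6 against K666T had too few reads to be called lower with the prior count.

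R625H and K666T were transfected with the same amount of plasmid. None of the 9 genes was 2-fold apart between them, against 0.0757% of all genes higher and 0.0925% lower in R625H. IFNL1 had too few reads to pass 2-fold there with the prior count. CCL2 was 1.86-fold higher in R625H, with an interval above 1 (1.16 to 3.01). The interval of each of the other 8 held 1. For IFNB1 the ratio of R625H to K666T was 1.23 (0.854 to 1.79), for CXCL10 1.22 (0.994 to 1.5) and for CXCL11 0.945 (0.618 to 1.44). For IFNL1, with 3 and 5 reads, it was 0.630 (0.0979 to 3.24).

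**Figure D3:**
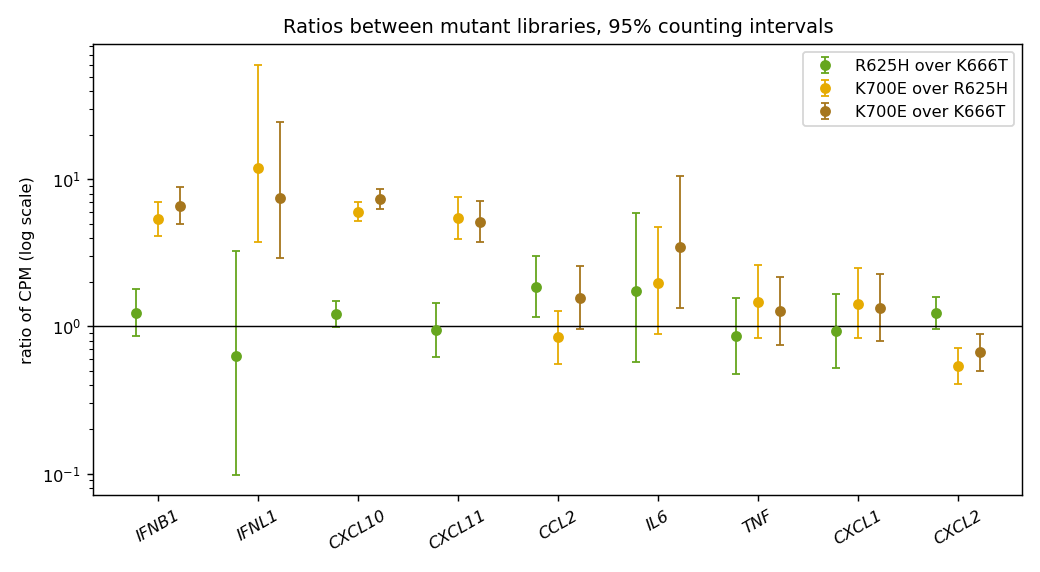
Ratios of CPM between mutant libraries (y axis, log scale) for the 9 genes (x axis), with bars for the 95% counting interval and a line at 1. The ratios of K700E to R625H and K666T lie between 5.12 and 11.9 for IFNB1, IFNL1, CXCL10 and CXCL11, and below 1 for CXCL2.

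Set per length, as CPM per kb of annotated exon, the levels also changed order between libraries. In K700E the highest level was that of CXCL10 at 13.0 CPM per kb, followed by IFNB1 at 5.08, CXCL11 at 1.55, CXCL2 at 0.634, IFNL1 at 0.506, CXCL1 at 0.335, CCL2 at 0.273, TNF at 0.244 and IL6 at 0.116. In R625H and K666T, CXCL10 also led, at 2.16 and 1.77 CPM per kb. In WT, CXCL2 led at 0.491 CPM per kb, ahead of CXCL10 at 0.281 and CXCL1 at 0.212, and the other 6 genes were between 0.0106 and 0.102. The 9 genes together made up 7.05, 5.87 and 25.6 CPM in R625H, K666T and K700E, and 1.84 CPM in WT.

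Reads that span an annotated intron give another readout from the same libraries, for 8 genes, since IFNB1 has none. A fragment that spans several introns is counted at each of them, but the intervals treat the summed counts as independent. The intervals on spliced reads are therefore too narrow. CXCL10 had 113, 96 and 829 such reads over its 3 introns in R625H, K666T and K700E, against 10 in WT, which scaled to all junction reads gave 12.3-fold (6.46 to 26.4), 10.1-fold (5.25 to 21.7) and 84.0-fold (45.4 to 176). Its first intron in the direction of transcription (hg19 chromosome 4, 76943971 to 76944523) was read 36, 32 and 286 times against 4 in WT. CXCL11 had 20, 17 and 135 spliced reads against 6, CCL2 32, 15 and 29 against 5, and IFNL1 3, 5 and 25 against 3. These follow the order of the libraries in the gene counts for CXCL10 and CCL2, with K700E highest for CXCL10, CXCL11 and IFNL1 and R625H highest for CCL2. No junction outside the annotated introns was read within any of the 8 genes.

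For TNF and CXCL2 the spliced reads gave another picture than the gene counts. TNF had 2 reads over its 3 introns in R625H, 13 in K666T and 25 in K700E, against 0 in WT, a count of 0 that allows up to 3 reads. Per 100 gene reads this was 8.70, 46.4 and 73.5, against 0 in WT. K700E was thus 11.6-fold above R625H in spliced TNF reads (2.89 to 101), compared with 1.46-fold in gene reads. The TNF introns lie close together, so a read can count at several of them and this interval is too narrow. CXCL2 had 37, 39 and 38 spliced reads in R625H, K666T and K700E, against 24 in WT. The ratio of K700E to R625H was 0.953 in spliced reads (0.590 to 1.54) and 0.540 in gene reads, and that of R625H to WT 1.68 (0.980 to 2.94) against 2.39. CXCL1 had 9, 16 and 18 spliced reads against 11, and IL6 6, 4 and 8 against 2. A fragment can span several introns, so these reads are not a share of the gene reads.

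**Figure D4:**
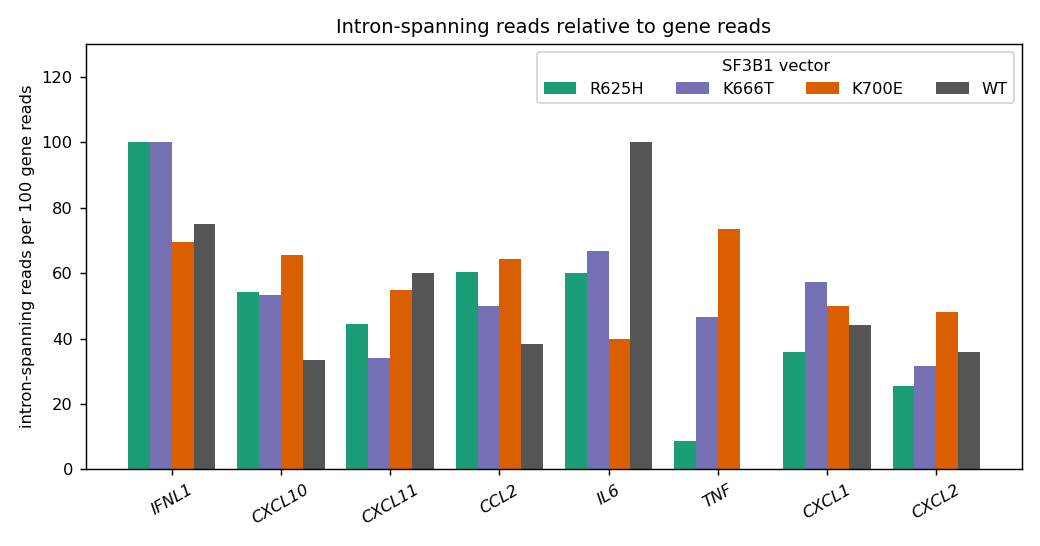
Reads that span annotated introns per 100 gene reads (y axis) for the 8 genes with introns (x axis), 1 bar per library. TNF stands at 8.70 in R625H, 46.4 in K666T and 73.5 in K700E and at 0 in WT, and the IL6 and IFNL1 bars rest on 2 to 36 gene reads.

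Other interferon genes were nearly silent apart from the lambda group. Of 16 further type I genes, 9 had no read in any library and none reached 10 reads. The highest was IFNA5, named after its values were seen, with 6, 5 and 7 reads in R625H, K666T and K700E, against 2 in WT. IFNL2 and IFNL3, close copies of each other beside IFNL1, had 15 and 19 reads in K700E and none in WT, at least 5.48-fold and 6.94-fold higher when WT is set to the limit of 3 reads. Their counts were 2 and 4 in R625H and 1 each in K666T, and since 5.17% of the 100-base windows of IFNL2 also stand in IFNL3, their split is uncertain. IFNG, the interferon of T and NK cells, had 0, 2 and 1 reads against 0 in WT, and IFNL4 had none.

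None of the 6 interferon receptor genes was 2-fold apart from WT in any mutant, and their median log2 ratios were 0.07, 0.05 and 0.01 in R625H, K666T and K700E. IFNAR1, a chain of the receptor for interferon beta, had 7638, 8562 and 8071 reads against 8372 in WT. IFNAR2, its partner chain, had 1571, 1538 and 1658 against 1903, and IFNLR1, the chain particular to lambda interferons, 1574, 1673 and 1715 against 1653. IL10RB, the other lambda receptor chain, and IFNGR1 and IFNGR2, which bind interferon gamma, had log2 ratios between -0.17 and 0.13. The 4 genes IL6R, IL6ST, TNFRSF1A and TNFRSF1B had log2 ratios between -0.21 and 0.38. Of 11 chemokine receptor genes 5 reached 10 reads and none was 2-fold apart with the prior count, the largest differences in K700E being in ACKR2, a scavenging receptor (log2 -0.77), CXCR2 (-0.22) and ACKR3 (0.14). Without the prior count, ACKR2 had 30, 49 and 19 reads in R625H, K666T and K700E, against 43 in WT, and its CPM in K700E was 0.484 of that in WT (0.266 to 0.848). CXCR2 in K666T was at 1.73-fold of WT, with an interval that held 1 (0.916 to 3.38).

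Most other chemokine and cytokine genes were not past 2-fold either. Of 14 further CXC and CX3C genes 8 reached 10 reads, and none was 2-fold apart in any mutant. CXCL8, a neutrophil chemokine and NF-kB target, had 284, 219 and 281 reads against 201 in WT, or 1.56-fold (1.30 to 1.88), 1.15-fold (0.943 to 1.40) and 1.53-fold (1.27 to 1.84). CXCL12, the ligand of CXCR4, was at 0.733, 0.835 and 0.655 of WT, and PF4 at log2 -0.67, -0.58 and -0.58. CXCL9, which shares its receptor with CXCL10 and CXCL11 and was named after its values were seen, had 3, 4 and 4 reads against 0 in WT.

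Among 15 CC chemokine genes matched, 4 reached 10 reads and CCL7, another monocyte chemokine, was past 2-fold with the prior count in all 3 mutants. CCL7 had 42, 23 and 24 reads in R625H, K666T and K700E, against 5 in WT, or 9.29-fold (3.68 to 30.1), 4.84-fold (1.80 to 16.3) and 5.26-fold (1.97 to 17.6), with R625H highest as for CCL2. CCL26 and CCL20 had log2 ratios between 0.52 and 0.99 with the prior count. Without it, CCL26 was 3.32-fold (1.26 to 10.2), 3.68-fold (1.44 to 11.2) and 2.92-fold (1.09 to 9.11) above WT in R625H, K666T and K700E. CCL20 was 2.21-fold above WT in R625H (1.34 to 3.73), and its intervals in K666T and K700E held 1. Of 27 other cytokine genes 18 reached 10 reads, of which 1, 0 and 2 were 2-fold higher in R625H, K666T and K700E, namely IL32 in R625H (named after its values were seen) and TNFSF10 and CSF3 in K700E. TNFSF10, the death ligand TRAIL, had 20, 12 and 58 reads against 14 in WT, 4.54-fold higher in K700E (2.5 to 8.81). CSF3 had 5, 7 and 12 reads against 1, 13.1-fold higher in K700E with a wide interval (1.94 to 562). It reached 10 reads in K700E only, so its place in the count rests on the library where it was called. LIF, a cytokine of the IL6 family, had 990, 1089 and 1244 reads against 749, 1.82-fold higher in K700E (1.66 to 1.99).

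Genes that induce IFNB1 transcription were split. Of 13, 3 were 2-fold higher in R625H and in K666T and 4 in K700E, with medians of log2 0.25, 0.14 and 0.31. They were the RNA sensor genes DDX58, also called RIGI (2.25, 1.84 and 4.29), and IFIH1 (1.43, 1.22 and 3.23), the transcription factor gene IRF7 (1.60, 1.47 and 3.14) and, in K700E, the endosomal sensor gene TLR3 (0.14, -0.16 and 1.22), named to complete the count. DDX58, IFIH1 and IRF7 are themselves known as interferon-induced genes.

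**Figure D5:**
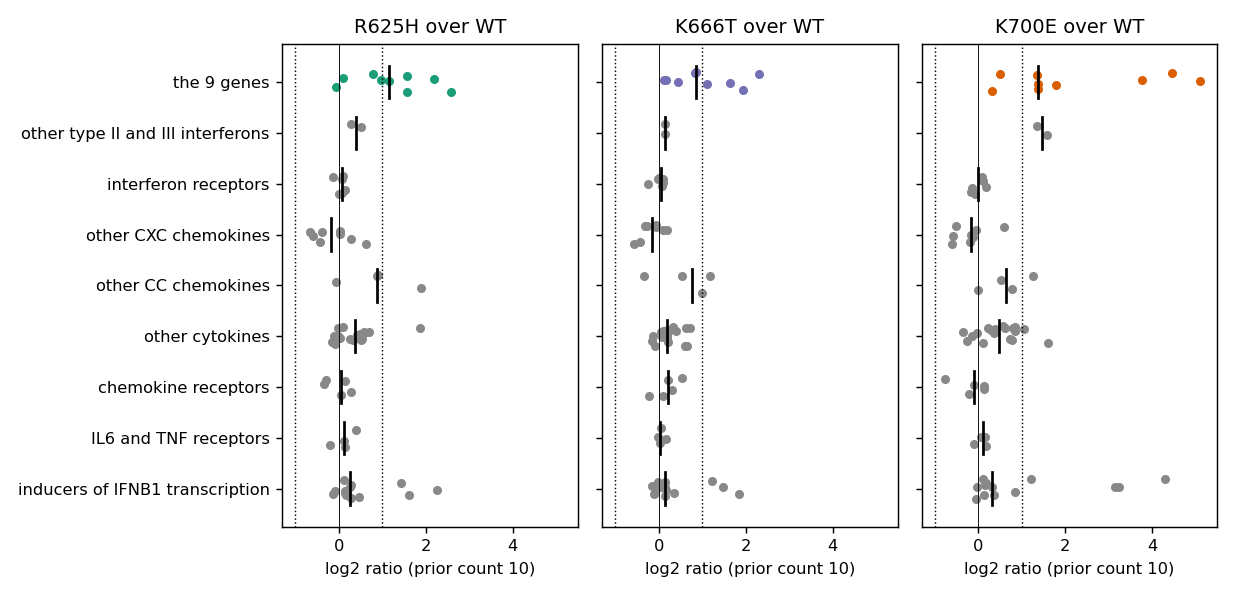
Log2 ratio to WT with a prior count of 10 (x axis) of every listed gene with at least 10 reads in some library, by gene group (y axis), in R625H, K666T and K700E, with short bars at the median and dotted lines at 2-fold. The 9 genes have medians of 1.14, 0.85 and 1.38, and the interferon receptors 0.07, 0.05 and 0.01.

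The genes whose levels were most like those of IFNB1 over the 4 libraries were sought among 76 genes with at least 100 reads in all and a 4-fold range. They were EPSTI1, OAS2, RSAD2, OASL and IFIT1, all known as interferon-induced, with Pearson correlations of log2 CPM between 0.9991 and 0.9996. With 4 libraries, of which K700E is far above the rest, these values describe the order of the libraries and the place of K700E. EPSTI1 had 240, 218 and 941 reads in R625H, K666T and K700E, against 60 in WT, and OASL 1145, 877 and 7210 against 168.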

How the data were processed

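The 4 HEK293T libraries were stranded mRNA libraries, sequenced from both ends, per the labels' protocols. The authors deposited raw counts of reads per gene and per splice junction, and with each junction a score, the longest overhang, which was not used. STAR 2.5.3a and HTSeq with hg19 are named in the submitters' processing notes. No source used here gives the annotation release. Gene reads are column 4 of the gene files, the transcript strand for such a kit. Library totals hold all gene IDs, named or not, and pairs outside them (unmapped, multi-mapped, ambiguous or in no gene) came to between 21.9 and 29.5% of pairs. Gene IDs were named from a table that holds 51996 of 57820. CCL3, CCL4, CCL5, NEFL and PECAM1 were not matched and are not analysed here.

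CPM is the count scaled to the gene reads of its library. Ratios have exact conditional 95% intervals (scipy 1.17.1), for counting error only. Those of spliced reads treat the counts at each intron as independent. Calls used a log2 ratio of at least 1 with a prior count of 10 reads, scaled to library size. The calculation was tested on simulated data, with changes set only in genes that had more WT reads than IFNB1, IFNL1, CXCL11, CCL2, IL6 and TNF. That test therefore does not cover changes at counts as low as theirs. Introns of GENCODE release 29 (GRCh38) were placed on hg19 junctions by 1 shared shift per gene, with at least 2 introns matched. Exon lengths are from that release. Alternatives were TMM (edgeR 4.0.16) and DESeq2 1.42.0 scaling, a prior count of 1, unstranded counts and a filter at 1 CPM. Besides the 9 genes, those named are every gene of a list of 6 or fewer and otherwise the 3 with the largest log2 ratio in K700E, of those with at least 10 reads. The genes, lists and rules were chosen with earlier results of these data known.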

Additional observations from a re-analysis of the deposited data

How the results depend on the processing

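The count of the 9 genes at least 2-fold apart stayed within 1.5 times under each alternative in all 6 comparisons, with 1 exception. In K700E over WT, leaving out genes under 1 CPM in every library gave 3 in place of 7, because 4 of the 9 genes pass that filter. IFNB1 and CXCL11 pass it through K700E only. With a prior count of 1 read, 7 genes were called in R625H over WT in place of 5 (IL6 and TNF added) and 6 in K666T over WT in place of 4 (CCL2 and IL6 added), and 5 in K700E over K666T in place of 4 (IL6 added), and unstranded counts gave 5 in K666T over WT (CCL2 added). TMM and DESeq2 scaling moved no log2 ratio of the 9 genes by more than 0.03 and changed no call. Unstranded counts moved them by at most 0.24 and a prior count of 1 by at most 1.54. Each of the 54 log2 ratios kept within its counting interval's half-width under these 4 settings. At low counts that width is large and says little. The log2 ratio of IL6 in K700E over WT went from 1.38 to 2.91 with a prior count of 1 and still lay within it. Adding multi-mapped junction reads, chosen after the data were examined, gave 1124 spliced reads in K700E in place of 1107. No paired analysis was possible because each vector has 1 library. Depth limits IFNL1 and IL6 most, with 2 to 10 reads outside K700E.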

Other observations

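IL32, a cytokine gene singled out after its values were seen, was high in R625H alone. It had 531 reads in R625H, 169 in K666T and 175 in K700E, against 154 in WT. R625H was 3.81-fold above WT (3.18 to 4.59) and 3.30-fold above K666T (2.77 to 3.95), while K700E was at 0.327 of R625H (0.274 to 0.388). This order differs from that of IFNB1 and CXCL10, whose highest library was K700E. CSF1, the macrophage growth factor, also picked after its values were seen, had 2165, 1844 and 2768 reads in R625H, K666T and K700E, against 1688 in WT, 1.42-fold (1.33 to 1.51), 1.15-fold (1.08 to 1.23) and 1.80-fold (1.69 to 1.91) higher. ITGAM, a myeloid integrin on the leukocyte marker list, was 4.48-fold (2.75 to 7.60), 3.91-fold (2.39 to 6.67) and 4.07-fold (2.49 to 6.94) above WT, with the 3 mutants close together. With 1 library per vector, none of these differences has a replicate check.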
